A study of Mus musculus with 6 samples.

Results

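The cytosolic ribosomal proteins are the protein subunits of the ribosome that translates nuclear-encoded mRNA in the cytoplasm. On the arrays described here they were taken as every probe whose single gene symbol begins with Rps or Rpl followed by a digit, or with Rplp, leaving out the S6 kinases (Rps6k, 5 probes) and symbols of pseudogenes (-ps, 2 probes). The rule found 76 probes of 69 genes among the 21766 probes of the array, of which 16632 carry a single symbol, of 15063 genes in all. By symbol, 28 probes of 25 genes were counted to the small subunit (Rps) and 48 probes of 44 genes to the large subunit (Rpl and Rplp). The small subunit count includes Rps19bp1, which encodes no subunit, and the retrogene Rps23rg1. A further 5 probes carry a ribosomal protein symbol together with other symbols and were not taken in. The group was selected on its mutant over wild type ratios in these same arrays, whose values were known when it was proposed, so those ratios are described here without a test.

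The study compared the embryonic mouse cortex with and without Mest, also called Peg1, an imprinted gene expressed from the paternal copy. Mutant embryos inherited from their father a Mest allele targeted with LacZ and missing exons 3 to 8, and their mothers were wild type. At E12.5, the cortex of each of 6 mutants was hybridised against that of a wild-type embryo on a two-colour array of oligonucleotide probes, with the mutant in Cy5 on the arrays of mutants 3, 5 and 6 and in Cy3 on those of mutants 1, 4 and 7. In the design there are 3 wild-type embryos, and each was read as serving on 2 arrays of opposite orientation. The array of mutant 3 is labelled with wild type 1, which the design does not list, and was read as carrying wild type 2. The sources used here give neither strain nor sex. The allele came through the germ line, so Mest was disrupted throughout the embryo and not in the cortex alone.

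Each ribosome has a small subunit, which binds the mRNA and reads its codons, and a large subunit, which forms the peptide bond and releases the chain through an exit tunnel. The subunits are assembled in the nucleolus from ribosomal RNA and near-equal amounts of each protein, and proteins made in excess are degraded. Ribosomal protein mRNAs are among the most abundant of a growing cell. In mammals they share a pyrimidine tract at the 5′ end, called the terminal oligopyrimidine or TOP tract, through which the mTOR kinase and the binding protein Larp1 regulate their translation and stability. Neural progenitors of the embryonic cortex divide fast and are rich in ribosomes.

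The sequences at the starts of the genes were searched for this tract, which the naming rule did not use. RefSeq's table of assembly GRCm38.p6 held 69 starts for 57 of the 69 genes. Windows of 30 bases, from 10 before the annotated start to 20 from it, were searched for a C followed by at least 7 pyrimidines (C or T in any order), whose letters are in capitals below. These lines show 6 genes with the tract, from both subunits, and then 4 without it in this window, since members of both kinds return below with their ratios.
Rpl27a (GRCm38.p6 chr7:109519185-109519214, plus strand): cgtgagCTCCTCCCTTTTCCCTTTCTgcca
Rpl15 (GRCm38.p6 chr14:18270967-18270996, minus strand): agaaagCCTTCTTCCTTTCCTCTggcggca
Rpl14 (GRCm38.p6 chr9:120571507-120571536, plus strand): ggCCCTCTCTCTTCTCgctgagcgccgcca
Rplp2 (GRCm38.p6 chr7:141447641-141447670, plus strand): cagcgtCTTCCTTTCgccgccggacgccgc
Rps18 (GRCm38.p6 chr17:33955646-33955675, minus strand): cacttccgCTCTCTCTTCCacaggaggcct
Rps24 (GRCm38.p6 chr14:24490668-24490697, plus strand): gctggggtCCTTCCTTgcgcgttgatatga
Rpl11 (GRCm38.p6 chr4:136053374-136053403, minus strand): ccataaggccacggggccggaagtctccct
Rplp0 (GRCm38.p6 chr5:115559457-115559486, plus strand): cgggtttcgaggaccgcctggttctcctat
Rps23 (GRCm38.p6 chr13:90923112-90923141, plus strand): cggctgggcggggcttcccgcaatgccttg
Rps28 (GRCm38.p6 chr17:33824543-33824572, minus strand): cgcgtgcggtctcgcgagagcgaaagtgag

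The tract stood on the sense strand of at least 1 start in 21 of 57 ribosomal protein genes (36.8%), in 7 of 21 of the small and 14 of 36 of the large subunit. Of all 27025 genes with a start in the table, 10.1% had it. On the antisense strand it was found in 2 of the 57 genes (3.51%), against 11.8% of all genes. Annotated starts can lie some bases away from the true cap site, so a window without the tract says only that these letters were not found in it. Mutant over wild type ratios, introduced next, had a median of -0.19 in the 20 measured genes with the tract and of -0.19 in the 34 without it, with quartiles of -0.27 and -0.15 with the tract and -0.25 and -0.11 without it.

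Values are given as log2 of mutant over wild type, each array having been shifted so that its median probe is at 0. A value below 0 thus means a lower ratio than that of the array's median probe. The direction was read from the dye labels and rests on Mest, whose ratio lay between -2.07 and -1.36 on the 6 arrays. Per array, 93.4% to 98.7% of the ribosomal protein probes were measured, against 75.4% to 89.9% of all probes. Of the 590 values at the file's ceiling, 0 were of ribosomal protein probes. Deposited ratios within 0.02 of 0 made up 14.9%, 1.39% and 9.33% of the ribosomal protein values in mutants 3, 5 and 6. The shares of all values there were 2.47%, 0.585% and 3.94%. In mutants 1, 4 and 7 the shares were 11.1%, 0% and 0%, against 5.11%, 1.60% and 2.52% of all values. A probe was fitted if measured on 4 or more arrays with 2 or more of each dye orientation, which kept 72 of the 76 ribosomal protein probes and 66 of the 69 genes. The probes not fitted were the only ones of Rpl37, Rpl39l and the Rps23-derived retrogene Rps23rg1, and the second probe of Rps16. Ratios hold no expression level, so the tissue label could not be checked by the level of cortical markers, of which 7 of 8 had a fitted probe. In whole tissue, fewer cells of a type and less RNA per cell cannot be told apart.

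The mean of the ribosomal protein genes lay below the array median in all 6 mutants, by amounts that differed between mutants. With 1 value per gene, their mean ratio was -0.42, -0.29 and -0.09 in mutants 3, 5 and 6 and -0.12, -0.18 and -0.24 in mutants 1, 4 and 7. The mean was below 0 on all 6 arrays, and it averaged -0.22 ± 0.12 (SD, n = 6 arrays). Mutant 3 was the lowest and mutants 6 and 1 were the nearest to 0. On single arrays the share of the genes below 0 was highest in mutant 3, with 63 of 66, and lowest in mutant 6, with 46 of 66. The median of all 12576 genes was 0.011 in mutant 3 and 0.014 in mutant 6.

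**Figure D1:**
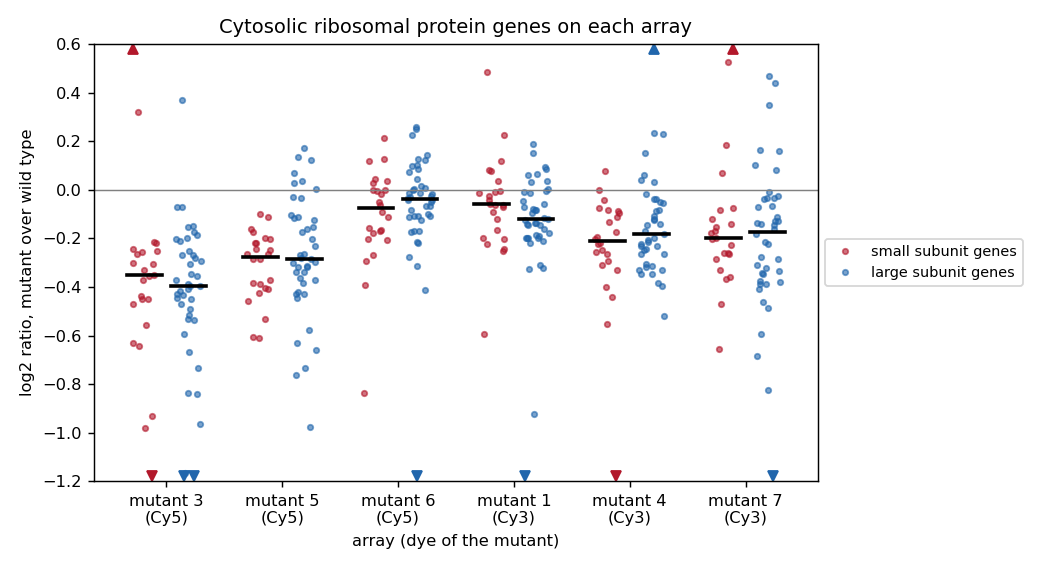
Log2 ratio of mutant over wild type (vertical axis) of each ribosomal protein gene on each of the 6 arrays, small subunit left of large, with the median as a black bar and triangles for genes beyond the axis. Both subunits lie mostly below 0 on every array, lowest in mutant 3 and nearest to 0 in mutants 6 and 1.

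In the deposited ratios, Cy5 over Cy3, the side of the all-probe median on which the group lay turned with the dye orientation. On the arrays of mutants 3, 5 and 6, with the mutant in Cy5, the median deposited ratio of the ribosomal protein probes was -0.14, 0.49 and 0.14, against 0.26, 0.76 and 0.19 for all probes. On the arrays of mutants 1, 4 and 7, with the mutant in Cy3, it was 0.087, -0.39 and 0.47, against -0.0040, -0.585 and 0.28 for all probes. The median of the ribosomal protein probes thus lay below that of all probes wherever the mutant was in Cy5 and above it wherever it was in Cy3. This restates the contrast that the group was selected on, so nothing further is read from it. A deposited ratio of 0 would lie on the same side of the all-probe median in every mutant but mutant 7. The part of ratios near 0 in the position of the group was not tested. The position relative to the other probes is the measured quantity: without centring the mean over genes was 0.030, and when Gapdh control spots set the centre it was 0.038. Those control spots, for a glycolytic enzyme that is also highly expressed, had a median of -0.44, -0.49 and -0.061 in mutants 3, 5 and 6 and of -0.050, -0.30 and -0.23 in mutants 1, 4 and 7, below 0 on all 6 arrays.

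Across probes, 67 of the 72 fitted ribosomal protein probes had a ratio below 0, or 93.1%, against 48.7% of all 17476 fitted probes. Below 0 on all 6 arrays were 30 of the 69 with complete values, or 43.5%, against 3.07% of all probes. At an unadjusted p under 0.05 in limma, 13 of 72 lay lower in mutants and 0 higher, against 2.33% and 1.60% of all probes. After Benjamini-Hochberg adjustment over all probes 0 of the 72 passed 0.05, as did 0% of all probes. The probe of the disrupted gene Mest, between -2.07 and -1.36 on the 6 arrays, did not pass either. Since the same contrast led to the choice of the group, nothing is read from these counts. The count of 13 also depended on single arrays: it was 1 of 71 without mutant 7 and 2 of 71 without mutant 3. It was 7 of 70 without mutant 1 and 27 of 71 without mutant 6. The shares of all probes lower at that p were 1.20%, 1.37%, 2.33% and 3.03% in the same order.

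The 2 subunits did not differ beyond the spread between arrays. The 24 genes counted to the small subunit include Rps19bp1, which encodes no subunit. They averaged -0.35, -0.32 and -0.11 in mutants 3, 5 and 6 and -0.059, -0.25 and -0.14 in mutants 1, 4 and 7. The 42 large subunit genes averaged -0.45, -0.27 and -0.073 in mutants 3, 5 and 6 and -0.15, -0.14 and -0.30 in mutants 1, 4 and 7. Small minus large was 0.028 ± 0.11 (SD, n = 6 arrays), above 0 on 3 arrays and below 0 on 3. Without paralogs and Rps19bp1 it was 0.046 ± 0.076. The medians over genes differed by 0.0039 ± 0.042. Over the fit, 23 of 24 small and 40 of 42 large subunit genes lay below 0, against 49.8% of all 12576 genes. The medians of the 2 subunits were -0.19 and -0.20. This comparison uses the contrast that led to the group and is given without a test.

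Within the large subunit, the P stalk is the flexible protrusion of Rplp0 and of paired Rplp1 and Rplp2 that recruits elongation factors. Rplp0 was measured by a pair of probes, of which 1 had -0.15, -0.23 and -0.076 in mutants 3, 5 and 6 and -0.088, -0.016 and -0.12 in mutants 1, 4 and 7. The other had -0.43, -0.082 and 0.11 in mutants 3, 5 and 6 and -0.31, -0.018 and -0.11 in mutants 1, 4 and 7. Both probes lay near or below 0 throughout. Rplp1 had -0.20, -0.31 and 0.12 in mutants 3, 5 and 6 and -0.011, -0.23 and 0.080 in mutants 1, 4 and 7. Rplp2 was more variable, with -0.53, -0.98 and -0.044 in mutants 3, 5 and 6 and 0.085, -0.52 and 0.35 in mutants 1, 4 and 7. The 3 stalk genes averaged -0.16 ± 0.23 (SD, n = 6 arrays), below 0 on 4 arrays.

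Rpl5 and Rpl11 form with the 5S RNA a particle that joins the large subunit and, when free, binds the p53 regulator Mdm2. Their ratios were unlike each other. Rpl11 had -1.37, -0.76 and -0.22 in mutants 3, 5 and 6 and -0.078, -0.35 and -0.82 in mutants 1, 4 and 7, below 0 on every array (mean -0.60 ± 0.48, SD, n = 6). Rpl5 had -0.070, -0.26 and 0.097 in mutants 3, 5 and 6 and -0.13, -0.26 and 0.16 in mutants 1, 4 and 7 (mean -0.077 ± 0.18), on both sides of 0.

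Around the exit tunnel of the large subunit, 5 of 8 listed genes were measured (Rpl19, Rpl22, Rpl26, Rpl35 and Rpl39), and they averaged -0.18 ± 0.12 (SD, n = 6 arrays). Beside Rpl11, the lowest large subunit genes with values on all arrays were Rpl27a, Rpl14 and Rpl15. Rpl14 had -1.81, -0.58 and -0.22 in mutants 3, 5 and 6 and 0.035, 0.23 and -0.14 in mutants 1, 4 and 7. Its values with the mutant in Cy5 lay below all those with the mutant in Cy3. Rpl15, by contrast, was below 0 on every array, with -0.84, -0.43 and -0.315 in mutants 3, 5 and 6 and -0.14, -0.049 and -0.68 in mutants 1, 4 and 7. The lowest fitted value of the group, -1.89 for Rpl32, is named here after its values were seen: it rested on 5 arrays that ranged from -5.27 to 0.13. Rpl34 and Rpl37a, further members of the large subunit, were tighter, between -0.73 and 0.063 and between -0.39 and -0.099.

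Rpl13 and Rpl29, which bind ribosomal RNA at the subunit surface, were the large subunit genes with a fitted ratio above 0, at 0.042 and 0.094. Rpl29 had -0.15, 0.0045 and 0.25 in mutants 3, 5 and 6 and -0.047, 0.039 and 0.47 in mutants 1, 4 and 7. Rpl13 had -0.415, -0.035 and 0.145 in mutants 3, 5 and 6 and -0.12, 0.23 and 0.44 in mutants 1, 4 and 7. Both genes overlapped 0 widely.

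In the small subunit, the head is the mobile upper part and the body the larger lower part, and mRNA passes between them. The 11 measured head genes averaged -0.17 ± 0.10 and the 10 measured body genes -0.22 ± 0.14 (SD, n = 6 arrays), each below 0 on all 6 arrays. Rps20, a head protein, had -0.98, -0.61 and -0.39 in mutants 3, 5 and 6 and -0.062, 0.076 and -0.23 in mutants 1, 4 and 7. Rps3, a head protein at the mRNA entry channel, was below 0 on every array, with -0.45, -0.41 and -0.27 in mutants 3, 5 and 6 and -0.0040, -0.074 and -0.26 in mutants 1, 4 and 7. Rps29, a small zinc-binding protein of the head, was the tightest of the genes named here (-0.19 ± 0.063, SD, n = 6), with values from -0.26 to -0.093. Its values in mutants 3 and 6, -0.26 and -0.17, were deposited ratios within 0.02 of 0, so there they mainly restate the array shift.

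Among body proteins, Rps21 had -0.93, -0.37 and -0.21 in mutants 3, 5 and 6 and -0.12, -0.0020 and -0.655 in mutants 1, 4 and 7. Rps23, which sits at the decoding centre, had -0.64, -0.25 and -0.0030 in mutants 3, 5 and 6 and -0.25, -0.20 and -0.47 in mutants 1, 4 and 7. Neither gene was above 0 on any array. Rps28, a head protein at the mRNA exit, and Rps24, a body protein, were likewise below 0 throughout, between -0.47 and -0.0020 and between -0.39 and -0.0040. Rps19, a head protein mutated in Diamond-Blackfan anaemia in humans, had the highest ratio of the small subunit genes with a single probe on all arrays. It had -0.56, -0.11 and 0.13 in mutants 3, 5 and 6 and -0.062, -0.089 and 0.070 in mutants 1, 4 and 7.

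**Figure D2:**
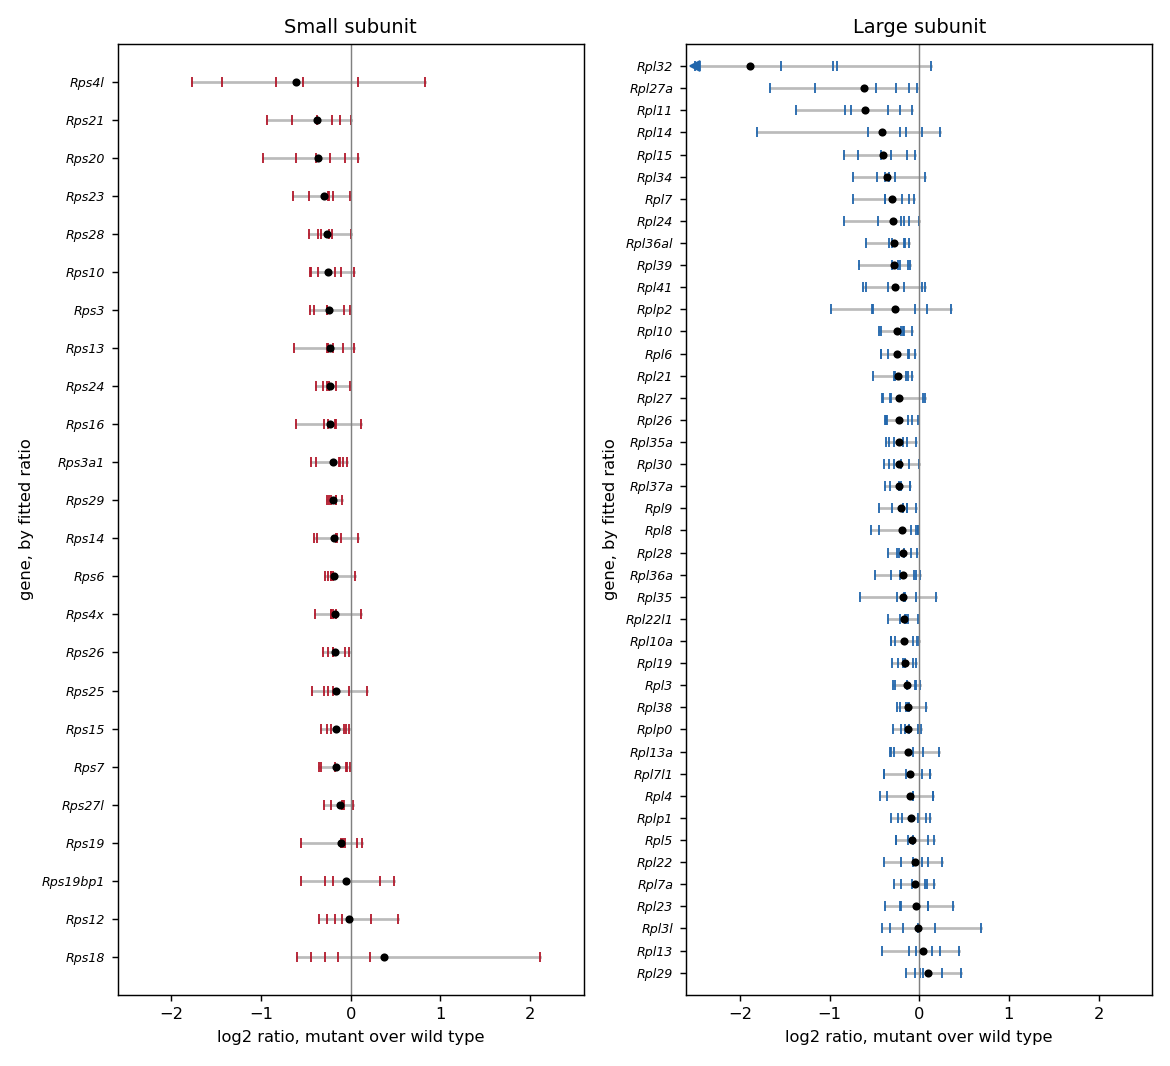
Log2 ratio of mutant over wild type of each of the 24 small and 42 large subunit genes, with the fitted value as a black dot and a tick per array; a triangle marks a value below the axis. Of the 66 genes, 63 have a fitted ratio below 0, and Rpl32, Rpl27a, Rpl11 and Rps4l lie lowest.

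The rule also took in paralogs, which replace or resemble a subunit in some tissues, and Rps19bp1, which encodes a binding partner of Rps19 rather than a subunit. Rpl22l1, the paralog of Rpl22, had -0.35, -0.12 and -0.012 in mutants 3, 5 and 6 and -0.21, -0.15 and -0.16 in mutants 1, 4 and 7. Rpl36al had -0.17, -0.34 and -0.11 in mutants 3, 5 and 6 and -0.16, -0.31 and -0.59 in mutants 1, 4 and 7. These were the paralogs below 0 on all 6 arrays. Rps27l, a p53 target in human cells, had -0.30, -0.22 and 0.028 in mutants 3, 5 and 6 and -0.071, -0.094 and -0.085 in mutants 1, 4 and 7. Rpl7l1 had -0.40, 0.12 and 0.125 in mutants 3, 5 and 6 and -0.145, 0.032 and -0.39 in mutants 1, 4 and 7. Both crossed 0. The muscle paralog Rpl3l had -0.185, 0.17 and -0.41 in mutants 3, 5 and 6 and -0.33, 0.69 and -0.011 in mutants 1, 4 and 7. Rps4l had the widest range of the paralogs, with -1.78, -0.53 and -0.84 in mutants 3, 5 and 6 and 0.081, -1.43 and 0.825 in mutants 1, 4 and 7. Rps19bp1, which had no value in mutant 7, lay between -0.55 and 0.48. Without paralogs and Rps19bp1, 59 genes averaged -0.23 ± 0.13 (SD, n = 6 arrays).

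Of the fitted genes, 4 lie on the X chromosome, and the single embryos of an array often differed in the X-inactivation RNA Xist, whose ratio ran from -2.38 in mutant 4 to 3.18 in mutant 3. Rpl10, a large subunit protein next to the peptidyl transferase centre, had -0.45, -0.42 and -0.17 in mutants 3, 5 and 6 and -0.083, -0.21 and -0.18 in mutants 1, 4 and 7. Rpl39, at the exit tunnel, had -0.67, -0.23 and -0.12 in mutants 3, 5 and 6 and -0.22, -0.11 and -0.31 in mutants 1, 4 and 7. Both were below 0 on all arrays. Rpl36a had -0.49, -0.32 and 0.0090 in mutants 3, 5 and 6 and -0.060, -0.039 and -0.21 in mutants 1, 4 and 7. The small subunit gene Rps4x had -0.215, -0.16 and 0.12 in mutants 3, 5 and 6 and -0.225, -0.40 and -0.20 in mutants 1, 4 and 7. The 4 X-linked genes averaged -0.22 ± 0.14 and the 62 autosomal ones -0.22 ± 0.12 (SD, n = 6 arrays).

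Of 6 genes with a pair of fitted probes, 3 had probes of opposite sign, so their gene values are uncertain. Rps18 had 4.48 and 0.53 in mutants 3 and 6 and -0.94, -0.52 and 0.086 in mutants 1, 4 and 7 by 1 probe, and values from -0.37 to -0.10 on all 6 arrays by the other. Rps12 had -0.64, 0.15 and -0.46 in mutants 3, 5 and 6 and 0.575, 0.23 and 1.07 in mutants 1, 4 and 7 by 1 probe, and values from -0.76 to 0.10 by the other. Rpl23 ranged from -0.47 to 1.23 by 1 probe and from -0.48 to 0.16 by the other. Rpl27a had -2.07, 0.27 and -0.27 in mutants 3, 5 and 6 and -3.37, -0.14 and -0.94 in mutants 1, 4 and 7 by 1 probe, against -0.39 to 0.055 by the other. In each of these 4 genes the wider probe was 1 whose identifier contains EXT. The other 2 genes, Rplp0, given above, and Rpl35a, had fitted ratios below 0 by both probes. Rpl35a had -0.48 to -0.11 by its EXT probe and -0.29 to 0.075 by its other probe.

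**Figure D3:**
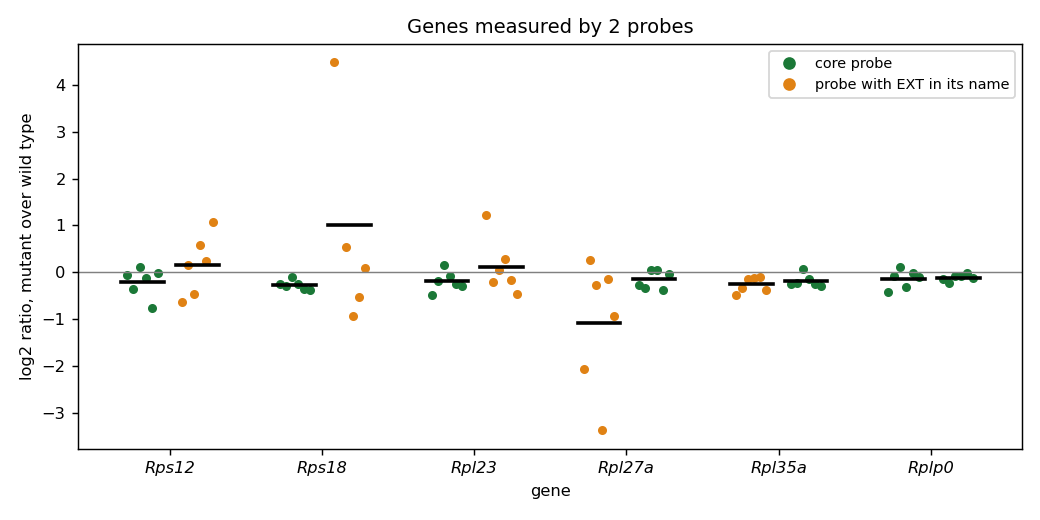
Log2 ratio of mutant over wild type of the 6 genes with 2 fitted probes, a dot per array and the fitted value as a bar, coloured by probe set. The probes with EXT in their identifier spread more widely for Rps12, Rps18, Rpl23 and Rpl27a, up to 4.48 for Rps18 in mutant 3.

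Probe sets differed in precision among the ribosomal protein probes as among all probes. The 40 ribosomal protein probes of the core set had a median ratio of -0.19, an interquartile range of 0.074 and a median standard error of 0.093, and 39 of them lay below 0. The 32 EXT probes had a median of -0.24, an interquartile range of 0.25 and a median standard error of 0.12, with 28 below 0. Over all probes the interquartile range was 0.195 in the 7119 core and 0.36 in the 10357 EXT probes, and the median standard error was 0.12 in core and 0.21 in EXT probes. Among all 72 fitted ribosomal protein probes, 60 had a standard error below the median of all probes. With these alone the mean was -0.19 and small minus large was -0.031, a setting chosen after the data were seen.

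Dye orientation, which played no part in the choice of the group, was associated with few ribosomal protein probes. At an unadjusted p under 0.05 for the dye term in limma, 2 of 72 passed (2.78%), against 20.0% of all probes, and after adjustment 0 of 72, against 0.269%. The 2 were Rps20, whose values in mutants 3, 5 and 6 are all below those in mutants 1, 4 and 7, and the EXT probe of Rps12. The median size of the dye coefficient, the difference between orientations, was 0.14 for the ribosomal protein probes and 0.35 for all probes. Low dye shares were not particular to this group. Of lists described below, other abundant transcripts had 1 of 25 probes at that p (4%, median size 0.16) and cortical markers 0 of 8 (median size 0.14). Other TOP mRNAs had 1 of 22 (4.55%), translation factors 5 of 62 (8.06%) and mitochondrial ribosomal proteins 8 of 69 (11.6%). The ribosomal protein count of 2 was 10 without mutant 6, 6 without mutant 7, 0 without mutant 1, and 1 without mutant 3 or mutant 5. The shares of all probes were then 21.6%, 20.6%, 15.3%, 20.5% and 11.9% in the same order.

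Beyond the common offset, the order of the genes was only partly shared between arrays. Over the 58 genes with a single probe and complete values, Spearman's rho between arrays ranged from -0.048 to 0.65 for the 6 pairs with the same dye orientation (median 0.35). For the 9 pairs of opposite orientation it ranged from -0.65 to 0.43 (median -0.058). Arrays of a pair share the probes and, in 3 pairs of opposite orientation, a wild-type cortex. Over all 13531 probes with complete values the medians were 0.23 and -0.18. These are descriptions across genes, which are not independent replicates.

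Of 6 listed subunit genes outside the naming rule, 2 were measured, and their fitted ratios lay in the same range. Their mean was below 0 on 4 of 6 arrays, and was 0.050 in mutant 6 and 0.011 in mutant 7. Rpsa, a small subunit protein that is also known as a laminin receptor, had a fitted ratio of -0.15 and Fau, whose product is processed to a small subunit protein, of -0.13. Other mRNAs known to carry a TOP tract, such as those of elongation factors, averaged -0.080 ± 0.078 (15 genes, SD, n = 6 arrays), with 13 of 15 below 0 and a median of -0.10. The lowest were Btf3 (-0.28), Eef1g (-0.24) and Naca (-0.22), which encode a nascent chain factor, an elongation factor subunit and a partner of Btf3. The highest were Tpt1 (0.41) and Eif4b (0.13). Tpt1 was at 3.19 in mutant 3 and below 0 on 4 of 6 arrays. None of the 22 probes of these 15 genes had an unadjusted p under 0.05 for genotype.

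Genes that build ribosomes did not share the offset as a list. The 38 measured ribosome biogenesis genes of 45 listed averaged -0.038 ± 0.13 (SD, n = 6 arrays), with 22 of 38 below 0 and a median of -0.045. The lowest were Bysl (-0.72), needed for small subunit maturation, Gar1 (-0.51), a part of the pseudouridylation particles, and Mrto4 (-0.48). Bysl, on 5 arrays, ranged from -4.96 in mutant 7 to 0.75 in mutant 3, and Gar1 was at -2.03 in mutant 3. At an unadjusted p under 0.05, 0 of 41 probes were lower and 2 higher, those of Nop2 (0.35) and Nolc1 (0.91), a nucleolar RNA methyltransferase and a nucleolar phosphoprotein. Regulators of ribosomal protein synthesis, averaged 0.0074 ± 0.057 (12 of 18 listed, SD, n = 6 arrays), with 5 of 12 below 0. Their lowest were the S6 kinase gene Rps6kb2 (-0.23) and Tsc2 (-0.17), an inhibitor of mTOR signalling. Their highest were Mlst8 (0.33), an mTOR complex subunit, Mycn (0.20) and Mtor (0.091), and 1 of 12 probes, that of Mlst8, had an unadjusted p under 0.05.

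The mitochondrial ribosome and the translation factors are the other parts of the translation machinery that were compared. The 69 mitochondrial ribosomal protein genes averaged -0.11, -0.13 and 0.098 in mutants 3, 5 and 6 and -0.13, -0.069 and -0.12 in mutants 1, 4 and 7. The 54 initiation and elongation factor genes, without pseudogenes, averaged -0.18, -0.050 and 0.072 in mutants 3, 5 and 6 and -0.10, -0.17 and -0.22 in mutants 1, 4 and 7. Over genes, 63 of 66 cytosolic ribosomal protein genes lay below 0, against 50 of 69 mitochondrial ribosomal protein genes, 43 of 54 translation factor genes and 49.8% of all 12576 genes. Median ratios were -0.19 for cytosolic ribosomal proteins, -0.11 for mitochondrial ones, -0.090 for translation factors and 0.0013 for all genes. At an unadjusted p under 0.05, 6 of 69 mitochondrial ribosomal protein probes were lower and 1 higher, and 4 of 62 translation factor probes were lower and 1 higher. These differences are descriptions without a test, since the same ratios led to the choice of the group.

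**Figure D4:**
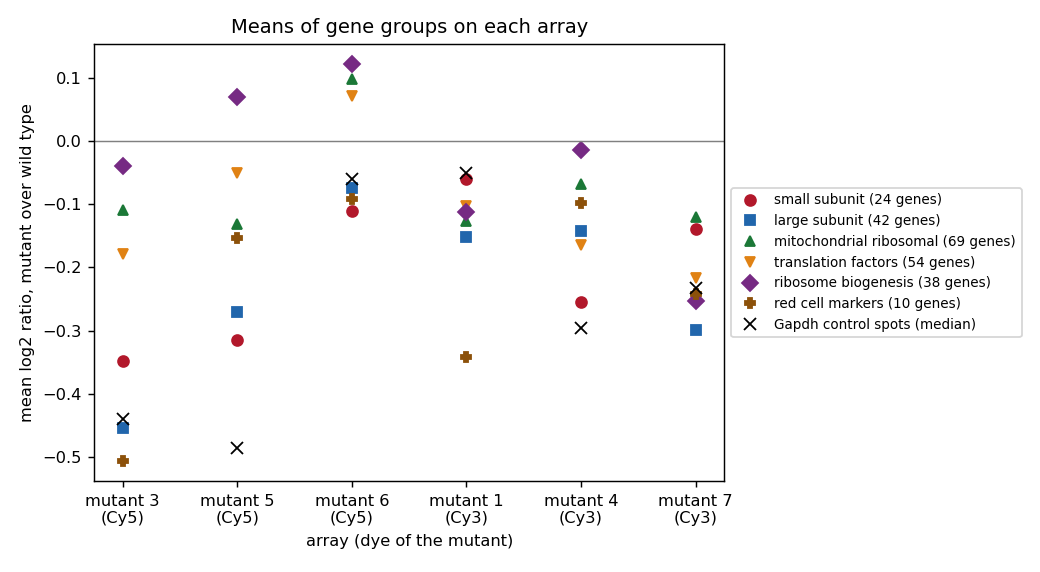
Mean log2 ratio of mutant over wild type of 6 gene groups and the median of the Gapdh control spots on each array. The small and large subunit means are below 0 on all 6 arrays, as are the red cell markers and the Gapdh spots, while the mitochondrial ribosome, translation factor and biogenesis means lie above 0 in mutant 6.

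Markers of red blood cells, which circulate in the vessels of the dissected tissue, also lay below 0 in every mutant. The 10 measured of 13 listed averaged -0.51, -0.15 and -0.091 in mutants 3, 5 and 6 and -0.34, -0.099 and -0.24 in mutants 1, 4 and 7. Their medians were -0.28, -0.31 and -0.15 in mutants 3, 5 and 6 and -0.34, -0.084 and -0.44 in mutants 1, 4 and 7. The mean in mutant 3 includes 1 far lower value, that of Gata1. By fitted ratio, 9 of 10 lay below 0. The lowest was Gata1 (-0.55), an erythroid transcription factor, which ranged from -3.11 in mutant 3 to 1.19 in mutant 5. The embryonic globin genes Hbb-y (-0.42) and Hbb-bh1 (-0.36) followed, and the highest was Epor (0.11). At an unadjusted p under 0.05, 4 of 11 probes were lower and 0 higher, those of Hbb-y, Hbb-bh1, Hba-x (-0.23) and Alas2 (-0.24), a haem synthesis enzyme. Some red cell values were deposited ratios within 0.02 of 0, moved by the array shift. Hba-a1 had -0.25, -0.75 and -0.17 in mutants 3, 5 and 6 and -0.014 in mutant 1, all of this kind. The histone gene H3f3a had the same values on those arrays. Hba-x, at -0.168 in mutant 6, was another. The part of such ratios in the red cell means was not tested. Abundant transcripts that encode no ribosomal protein averaged -0.090 ± 0.085 (22 genes, SD, n = 6 arrays), with 16 of 22 below 0. They ran from H3f3b (-0.46) and Stmn1 (-0.30) to Pfn1 (0.21) and Actb (0.32). Actb was at 2.15 in mutant 3, and Pfn1 ranged from -1.59 in mutant 7 to 2.05 in mutant 5. At that p, 2 of the 25 probes of these 22 genes were lower, those of H3f3b and Ppia (-0.25), and 0 higher. Endothelial, macrophage and meningeal markers had 5 of 9, 3 of 6 and 4 of 8 genes below 0, and cortical markers 4 of 7, with 0 probes of these 4 lists at an unadjusted p under 0.05 in limma for genotype. The part of red blood cells and of transcript abundance in the ribosomal protein ratios was not tested.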

How the data were processed

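RNA of single E12.5 cortices was compared on 6 two-colour arrays. The deposited values are log2 ratios, read as Cy5 over Cy3 from the dye labels and the Mest probe. How the authors scanned, filtered or normalized them was not given in the sources used here. Values at the ceiling (16.61) were treated as missing and 232 Gapdh control spots were left out of tests. Signs were turned so that mutant stands over wild type, and array medians were set to 0. Probes on 4 or more arrays, 2 or more per orientation, entered a limma fit (version 3.58.1, R 4.3.3) with genotype and dye terms and the shared wild type as a random block (duplicateCorrelation, 0.25). Benjamini-Hochberg adjustment ran over all fitted probes. The fit was run on data simulated from the fitted model itself, with planted effects far larger than the mean ratio of the group. That run does not bear on offsets of the size described here. Nothing says whether mutants shared a litter, and the number of arrays limits the precision.

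Gene symbols came from the platform's annotation, and a gene's value is the mean of its fitted probes. Named genes are the P stalk and 5S particle genes, the 4 lowest and 3 highest of each subunit, paralogs, X-linked genes, genes whose probes differ in sign and genes at an unadjusted p under 0.05; of other lists, up to 4 lowest and highest each. The members and lists were chosen with earlier results of these data known. Starts came from RefSeq (GRCm38.p6). Alternatives covered centring, scaling, filters, probes, arrays left out, the block, moderation and the dye term.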

Additional observations from a re-analysis of the deposited data

Results flagged for a closer look

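Of 52 named probes and group means examined, 4 had 1 array whose gap to the others was large for the range of the group; chance gives about 1 in 20. Rpl39 was lowest in mutant 3, at -0.669, and Rps19 was lowest in mutant 3 as well, at -0.557. The EXT probe of Rps18 was highest in mutant 3, at 4.48. The mean of the mitochondrial ribosomal protein genes was highest in mutant 6, at 0.098.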

How the results depend on the processing

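Centring decided the sign of the group means. Without it the means were 0.030 for all ribosomal protein genes, 0.048 for the small and 0.020 for the large subunit, and centred on Gapdh control spots 0.038, 0.056 and 0.029, while small minus large stayed at 0.028 in both. Under all other settings these 4 values moved by less than 1 SD over arrays. Leaving out 1 array gave means from -0.26 to -0.18 for all genes, -0.24 to -0.18 for the small and -0.26 to -0.19 for the large subunit, and differences from -0.020 to 0.046. No probe passed the adjusted genotype threshold under any setting (0 to 0 with 1 array left out). The 47 probes called for dye were 658 without centring, 10 centred on Gapdh, 176 with scaled arrays, 150 after quantile normalization, 135 with values on all 6 arrays, 1 without the replicate block of the shared wild type and 0 to 26 with 1 array left out. The 13 ribosomal protein probes lower at an unadjusted p were 0 without centring and 0 centred on Gapdh. They were 27 without the block, 29 without the dye term and 1 to 27 with 1 array left out. The share of all probes moved too, from 2.33% to 0.252%, 0.515%, 3.78%, 3.56% and 1.20% to 3.03% in that order. The 2 ribosomal protein probes with an unadjusted dye p were 6 without centring, 0 centred on Gapdh and 4 with values on all arrays. They were 0 to 10 with 1 array left out. Of all probes the dye share was 20.0%, and 30.4%, 14.6%, 21.1% and 11.9% to 21.6% under these settings. The cause of these shifts was not tested. The ratios carry no signal over background, so the brightness of a spot is unknown.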
